A study of Mus musculus with 4 samples.

Results

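Lrmda, Gm3893, Wdfy1, Nnt and Acer3 are 5 genes of 18820 measured in mouse epididymal fat, and they are described here as candidates for a difference in genetic background between mice lacking CD1d and wild type mice. They were selected on measured values, namely a distance between the CD1d-null (KO) and wild type arrays, or because a gene is known to vary between mouse substrains. The levels that chose them are therefore given as a description, with no test. All 5 lay among the 11292 genes that passed a filter on low signal and are called tested genes here. They were read by 8 probe sets that name a single gene, 1 each for Lrmda, Wdfy1 and Acer3, 2 for Nnt and 3 for Gm3893. A further 6 probe sets name Gm3893 together with other symbols and are given apart.

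The study asked about the part played by CD1d-restricted natural killer T cells in adipose tissue of lean mice, CD1d being the molecule that shows lipid antigens to these cells. There were 4 whole-transcript arrays, 2 of CD1d-/- mice on a low-fat diet (KO arrays 1 and 2), 1 of wild type (WT) mice given the high-fat diet and 1 of WT mice given the low-fat diet. The null allele had been crossed onto C57BL/6J for 10 to 12 generations, while the labels name a commercial supplier for the WT C57BL/6J mice and give C57BL/6 as the strain of every sample. The diets, with 10 or 45 kcal% fat, started at 10 to 11 weeks of age and lasted 18 to 19 weeks. Each array held 100 ng of RNA pooled from 4 to 6 mice of a group, so values between single animals were not measured, and it is not stated if both KO arrays came from the same pool. A spread could thus be had only from the KO pair, and the small number of arrays limits every value. With the WT diets at 1 array each, no WT value has a replicate, and a difference in breeding line cannot be told apart from the genotype.

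Cd1d1, the disrupted gene, was at log2 3.74 and 3.98 on KO arrays 1 and 2, against 11.80 on the WT high-fat array and 11.80 on the WT low-fat array. The adipocyte markers, 8 of 8 tested, lay between 11.38 and 13.48 on all arrays. The leptin gene Lep, among them, was at 11.97 and 12.93 on KO arrays 1 and 2, against 12.85 on the WT high-fat and 11.85 on the WT low-fat array. The arrays also differed in ways the genotype does not describe. The summed intensity of 8 macrophage markers was 6253 and 13959 on KO arrays 1 and 2, against 15810 on the WT high-fat and 7949 on the WT low-fat array. That of 8 epididymal markers was 241 and 556 on KO arrays 1 and 2, against 134 on the WT high-fat and 13755 on the WT low-fat array. The sum of 5 smooth muscle markers was 8488 and 4262 on KO arrays 1 and 2, against 4517 on the WT high-fat and 4349 on the WT low-fat array. Across the 11292 tested genes, which are not independent replicates, Pearson's r was 0.943 within the KO pair, 0.970 between KO array 1 and the WT low-fat array, and 0.981 between KO array 2 and the WT high-fat array. KO array 2, labelled low-fat, thus lay nearer to the high-fat WT array than to the other KO array, and the levels below are given for each KO array by itself. Over the tested genes the median difference from the WT low-fat array was −0.17 and −0.02 on KO arrays 1 and 2, and from the WT high-fat array −0.23 and −0.08.

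Inbred mouse substrains that have been bred apart carry a few differing alleles, and an allele moved from another strain by backcrossing keeps some of its donor's genome. Such differences can appear as single genes that are higher or lower in every tissue of 1 breeding line. Nnt is the best known case: C57BL/6J mice carry a deletion of several of its exons. The deletion removes the mitochondrial transhydrogenase, which uses NADH to make NADPH, and the substrain is known for impaired insulin secretion. Lrmda encodes a leucine-rich protein of melanocyte differentiation, whose human counterpart is mutated in a form of oculocutaneous albinism. Wdfy1 encodes an early endosome protein with WD repeats and a FYVE domain, which binds phosphatidylinositol 3-phosphate and acts as an adaptor of Toll-like receptor signalling. Acer3 encodes an alkaline ceramidase, which splits ceramide into sphingosine and a fatty acid. Gm3893 is a predicted gene that the RefSeq annotation lists as a transcribed pseudogene. In the RefSeq table for assembly GRCm38.p6, which was made from C57BL/6J, the genes lie on chromosomes 14 (Lrmda), 4 (Gm3893), 1 (Wdfy1), 13 (Nnt) and 7 (Acer3), and none shares chromosome 3 with Cd1d1. Of the 2 RefSeq transcripts that the array annotation lists for Nnt, 1 is in that table.

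RefSeq promoter windows of 300 bases around annotated starts were at hand for 2 of the 5 genes, Lrmda and Acer3, and are shown because of the 5 these lay lowest and highest on the KO arrays against the WT low-fat array. The Lrmda window lies at chr14:22019462-22019761 on the plus strand of GRCm38.p6, and its capitals mark the E-box letters CACGTG, the same on both strands. Acer3 has windows for 2 starts, at chr7:98309493-98309792 and chr7:98321159-98321458 on the minus strand, and capitals mark the GC box letters GGGCGG on either strand.
Lrmda: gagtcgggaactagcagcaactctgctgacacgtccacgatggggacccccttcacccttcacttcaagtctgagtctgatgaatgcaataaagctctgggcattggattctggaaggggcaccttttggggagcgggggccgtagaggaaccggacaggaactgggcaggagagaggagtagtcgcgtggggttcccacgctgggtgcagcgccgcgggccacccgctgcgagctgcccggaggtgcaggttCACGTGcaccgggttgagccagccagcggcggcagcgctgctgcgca
Acer3, start 1: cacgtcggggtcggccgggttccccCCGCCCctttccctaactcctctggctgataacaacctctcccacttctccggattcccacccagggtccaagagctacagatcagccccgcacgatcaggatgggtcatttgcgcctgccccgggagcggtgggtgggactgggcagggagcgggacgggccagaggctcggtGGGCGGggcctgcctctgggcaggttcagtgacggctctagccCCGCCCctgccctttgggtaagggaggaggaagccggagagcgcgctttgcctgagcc
Acer3, start 2: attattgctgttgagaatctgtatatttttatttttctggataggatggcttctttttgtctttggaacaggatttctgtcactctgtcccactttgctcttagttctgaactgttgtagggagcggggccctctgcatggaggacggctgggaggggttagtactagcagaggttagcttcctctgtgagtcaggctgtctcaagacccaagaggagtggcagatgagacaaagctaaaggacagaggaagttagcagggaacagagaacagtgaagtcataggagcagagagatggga
The Lrmda window held 1 E-box, beginning at base 254, with 21 CG dinucleotides and 64% G and C. Of 32851 promoter windows, 7.15% held an E-box. The first Acer3 window held 3 GC boxes, 20 CG dinucleotides and 68% G and C, while the second held 0 GC boxes, 2 CG dinucleotides and 47% G and C. GC boxes were found in 35.7% of all windows. The 1 probe set of Acer3 gives a single level for the gene, so its starts were not measured apart.

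Among tested genes Lrmda had, after Cd1d1, the largest distance between the nearest KO and WT arrays. Against the WT low-fat array alone, epididymal genes such as Spint4 (−7.51) were further below. Its level (probe set 10413152, Entrez gene 76633) was 6.17 and 6.14 on KO arrays 1 and 2, against 9.25 on the WT high-fat array and 9.54 on the WT low-fat array. Both KO arrays were thus low and both WT arrays high, with no overlap. The KO mean of 6.16 ± 0.02 (SD, n = 2) lay 3.09 below the high-fat and 3.38 below the low-fat WT level on the log2 scale, or 8.52-fold and 10.4-fold. The KO arrays were 0.02 apart and the WT arrays 0.29. The KO levels were near the middle of the array, at percentiles 49.5 and 48.3 of all genes on KO arrays 1 and 2, against 86.8 and 90.3 on the high-fat and low-fat WT arrays. Since the deposited table has no detection calls, a remaining low transcript and the background of the probes could not be told apart on the KO arrays. In bulk tissue, fewer cells of a type and less RNA per cell cannot be told apart either.

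Gm3893 showed the next distance, and every probe set that names it showed the same split. Its brightest single-gene probe set (10504123, Entrez gene 100042539) was at 6.22 and 6.18 on KO arrays 1 and 2, against 8.59 on the WT high-fat and 8.51 on the WT low-fat array. The KO mean, 6.20 ± 0.03 (SD, n = 2), was 5.21-fold lower than the high-fat and 4.94-fold lower than the low-fat WT level. Probe set 10504125 had the same values to all digits and adds no reading, though the counts of probe sets below include it. Probe set 10504121 was at 6.14 and 6.09 on the KO arrays, against 8.46 and 8.29 on the high-fat and low-fat WT arrays. Over all 9 probe sets that name Gm3893, the levels ran from 5.99 to 6.38 on KO array 1 and from 6.02 to 6.53 on KO array 2, against 8.08 to 8.59 on the WT high-fat and 7.96 to 8.51 on the WT low-fat array. The nearest KO and WT arrays were between 1.53 and 2.28 apart on the log2 scale in these 9. Probe sets for 1 gene and its copies may share sequence, so they are not independent readings.

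The 6 shared probe sets of Gm3893 all carry the symbol 4933409K07Rik, a second transcribed pseudogene. The 4 probe sets that name 4933409K07Rik without Gm3893 had a single set of values, 8.33 and 8.22 on KO arrays 1 and 2, against 8.08 on the WT high-fat and 8.68 on the WT low-fat array. Their KO and WT arrays overlapped. The same held for the 3 probe sets that name the chemokine gene Ccl27a without Gm3893, at 8.44 to 8.51 and 7.90 to 7.95 on the KO arrays, against 7.92 to 8.08 on the high-fat and 8.28 to 8.43 on the low-fat WT array. The low KO levels were thus found in 9 of 9 probe sets that carry the name Gm3893 and in 0 of the 7 that carry a partner symbol without it. The 9 hold 2 distinct sets of values among the single-gene and 6 among the shared probe sets, and the 7 hold 3. Over all 35556 probe sets, 21 were at least 2-fold lower on both KO arrays than on both WT arrays, of which 9 name Gm3893, 1 is that of Lrmda and 8 have no symbol. A further 375 were at least 2-fold higher on both KO arrays, of which 0 name any of the 5 genes and 203 have no symbol.

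Wdfy1 differed in the opposite direction and by less. Its level (probe set 10355974, Entrez gene 69368) was 6.99 and 7.31 on KO arrays 1 and 2, against 6.22 on the WT high-fat and 6.34 on the WT low-fat array. Both KO arrays lay above both WT arrays. The KO mean of 7.15 ± 0.23 (SD, n = 2) was 1.90-fold higher than the high-fat and 1.75-fold higher than the low-fat level. The nearest arrays, KO array 1 and the WT low-fat array, were 0.65 apart, about as far as 1.57-fold, while the KO arrays were 0.32 and the WT arrays 0.12 apart. By this distance Wdfy1 took place 33 of the 385 genes that were higher on both KO arrays.

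Acer3 was higher on the KO arrays than on 1 of the WT arrays alone. Its level (probe set 10565712, Entrez gene 66190) was 8.19 and 7.72 on KO arrays 1 and 2, against 7.90 on the WT high-fat and 6.73 on the WT low-fat array. The high-fat WT array lay between the KO arrays, and the low-fat one below all others. The KO mean of 7.96 ± 0.33 (SD, n = 2) was 2.34-fold higher than the low-fat level, while it lay 0.05 above the high-fat level, less than the SD, and KO array 2 by itself lay 0.18 below it. Acer3 was thereby 2.25-fold higher on the high-fat than on the low-fat WT array, a difference exceeded by few genes, since 97.3% of tested genes differed less. The WT low-fat array also held the high epididymal markers given above, and their part in the Acer3 difference was not tested.

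Nnt differed by the smallest distance of the 4 genes that had one. The brighter probe set (10412394, Entrez gene 18115) was at 7.48 and 7.50 on KO arrays 1 and 2, against 7.69 on the WT high-fat and 7.73 on the WT low-fat array. The other (10407356) was at 6.65 and 6.07 on the KO arrays, against 6.24 and 6.43 on the high-fat and low-fat WT arrays. The KO arrays were on the low side in the first probe set, with 0.19 between the nearest arrays, and in the second they lay on either side of both WT arrays. The KO mean of the first, 7.49 ± 0.02 (SD, n = 2), lay 0.20 and 0.24 below the high-fat and low-fat WT levels. In all, 2841 of 11292 genes (25.2%) were lower on both KO arrays than on both WT arrays, and 421 (3.73%) by at least as much as Nnt. Relative to the median of all tested genes the Nnt difference was −0.040 from the high-fat and −0.15 from the low-fat WT array, and KO array 1 by itself then lay 0.018 above the high-fat one. Probe positions were not used here, so which probe set reads the exons missing in C57BL/6J, if either does, is unknown.

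**Figure D1:**
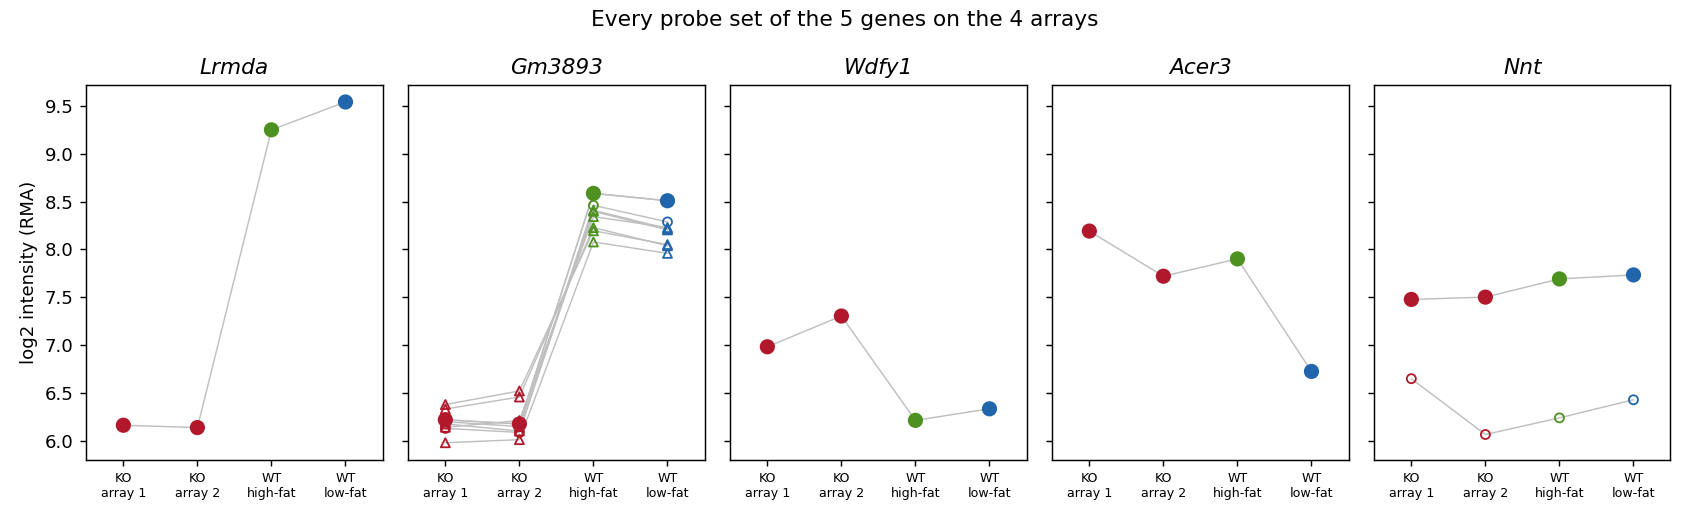
Log2 intensity (vertical axis) of every probe set of the 5 genes on KO arrays 1 and 2 (red), the WT high-fat array (green) and the WT low-fat array (blue), filled circles being the brightest single-gene probe set, open circles the other single-gene ones and triangles those shared with other symbols. Lrmda lies at 6.17 and 6.14 on the KO arrays and above 9 on both WT arrays, all 9 probe sets of Gm3893 split the same way, and the brighter Nnt probe set lies between 7.48 and 7.73.

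By size, 2 of the 5 genes (Wdfy1 and Acer3) were at least 1.5-fold higher and 2 (Lrmda and Gm3893) at least 1.5-fold lower on both KO arrays than on the WT low-fat array, where 0.584% and 0.77% of tested genes were. Against both WT arrays at once, 1 of 5 was higher (Wdfy1) and 2 of 5 were lower (Lrmda and Gm3893), where 0.345% and 0.0886% of tested genes were. As these contrasts chose the genes, nothing is read from the shares. With KO array 2 alone the count of genes on either side of both WT arrays was 106, and with KO array 1 alone 547, against 49 with both. A gene that passes with both KO arrays must pass with either alone. That Lrmda, Gm3893 and Wdfy1 were among them each time was thus fixed in advance and shows nothing about stability. In comparisons within a genotype, 1 of 5 genes (Acer3) was at least 1.5-fold apart between the high-fat and the low-fat WT array, where 11.5% of tested genes were, and 0 of 5 were so between KO array 2 and KO array 1, where 19.3% were. Lrmda, Gm3893 and the brighter Nnt probe set were closer on the KO arrays than most genes, with 4.75%, 8.71% and 4.67% of tested genes closer still. A choice by distance between KO and WT arrays favours genes whose KO arrays agree, so nothing is read from this closeness. The other Nnt probe set was 0.58 apart on the KO arrays, where the median absolute difference over tested genes was 0.29.

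The arrays can also be set in pairs that have no array in common, KO array 1 with the WT low-fat array and KO array 2 with the WT high-fat array, which were also the most alike in macrophage markers. Lrmda was 10.3-fold lower on KO array 1 in the first pair and 8.59-fold lower on KO array 2 in the second. Gm3893 was 4.87-fold and 5.29-fold lower in the same pairs. Wdfy1 was 1.57-fold and 2.12-fold higher. Nnt, by its brighter probe set, was 1.19-fold and 1.14-fold lower. Acer3 was 2.76-fold higher in the first pair and 1.13-fold lower in the second, so its direction was not shared there. With KO array 1 set against the WT high-fat and KO array 2 against the WT low-fat array, Acer3 was 1.22-fold and 1.99-fold higher. The other genes had both KO arrays on 1 side of both WT arrays, which fixes a shared direction in either pairing.

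**Figure D2:**
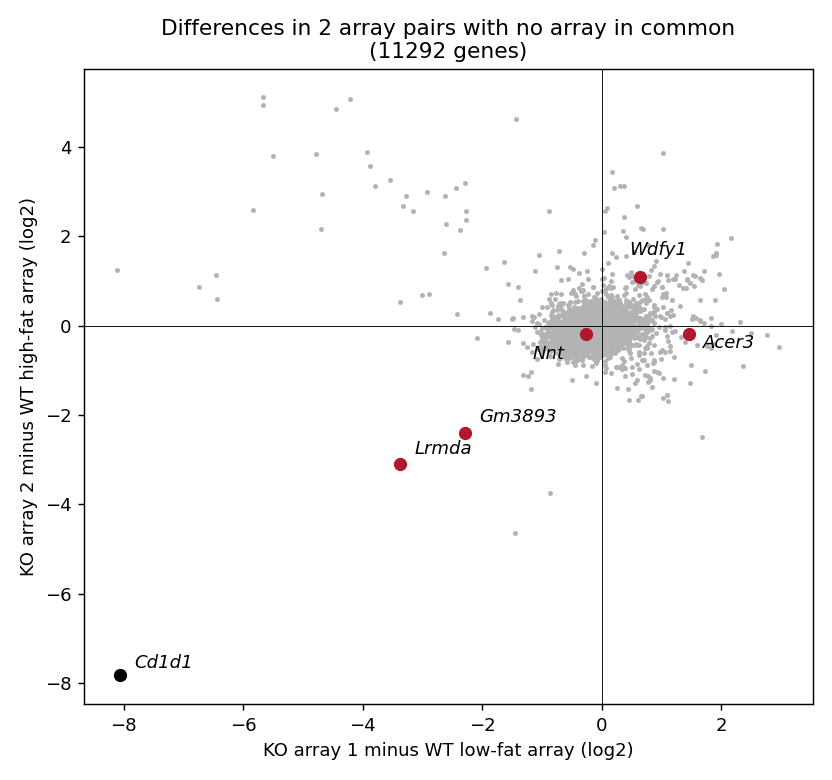
Log2 difference of KO array 1 from the WT low-fat array (horizontal axis) against that of KO array 2 from the WT high-fat array (vertical axis) for 11292 tested genes (grey), with the 5 genes in red and Cd1d1 in black. Lrmda and Gm3893 lie at lower left, beyond 2 on both axes, Wdfy1 at upper right, Nnt within the cloud, and Acer3 to the right near 0 on the vertical axis.

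Among all tested genes, the 10 lowest by distance between the nearest KO and WT arrays were Cd1d1 (−7.83), Lrmda (−3.08), Gm3893 (−2.28), Svs2 (−1.45), Sfrp2 (−1.11), Thbs3 (−0.99), Svs5 (−0.87), Adamts16 (−0.67), Tnk2 (−0.64) and Opcml (−0.60). Svs2 and Svs5 are seminal vesicle secretory protein genes, and the Wnt modulator gene Sfrp2 and the matrix gene Thbs3 lie on chromosome 3, as Cd1d1 does. Adamts16 lies on chromosome 13, as Nnt does. The 10 highest were Srsy (1.53), Gm20831 (1.49), Gm20809 (1.46), Gm20806 (1.42), Gm20815 (1.21), the alkaline phosphatase gene Akp3 (1.16), 4930555G01Rik (1.11), the vomeronasal receptor gene Vmn1r213 (1.10), Gm5622 (1.09) and Gm5458 (1.06). The first 5 of these are on chromosome Y, where genes occur in many near-identical copies that an array cannot tell apart. Of the others, 4930555G01Rik, Gm5622 and Gm5458 lie on chromosome 14 with Lrmda, Akp3 on chromosome 1 with Wdfy1, and Vmn1r213 on chromosome 13 with Nnt. Positions along the chromosomes were not compared here, so a shared chromosome does not place these genes near a member or near Cd1d1. Wdfy1, at 0.65, was not among the 10.

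The levels of other genes were set beside each member by the root mean square difference over the 4 arrays, after each gene was centred on its own mean. No tested gene came within 0.25 of Lrmda, whose nearest were Svs2 (0.88), Svs5 (0.91) and Sfrp2 (0.98), nor of Gm3893, whose nearest were Sfrp2 (0.53), Thbs3 (0.62) and Svs5 (0.69). For Wdfy1, 33 genes came within 0.25, led by Smim24 (0.08), A530040E14Rik (0.09) and the vomeronasal receptor gene Vmn2r93 (0.12). Smim24 was at 8.47 and 8.58 on KO arrays 1 and 2, against 7.64 and 7.81 on the high-fat and low-fat WT arrays. The nearest to Acer3 were the muscle calcium-binding protein gene Casq1 (0.16), the fatty acid-binding protein gene Fabp9 (0.25) and the tight junction gene Cldn1 (0.26). Casq1 was at 6.41 and 5.90 on the KO arrays, against 6.23 on the high-fat and 5.31 on the low-fat WT array, where Fabp9 was at 6.77 and 5.90, against 6.78 and 5.27. Near Nnt the measure told little apart, with 8394 genes within 0.25, led by Reck, Lrrc1 and Arsb. These likenesses rest on 4 arrays and are descriptions.

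The neighbours of Lrmda, Gm3893 and Wdfy1 had smaller distances than these genes themselves. As the members were chosen partly on such distances, nothing is read from this. Of 96 tested neighbours of the 5, up to 10 on each side, 0 had both KO arrays at least 1.5-fold on 1 side of both WT arrays, where 0.345% of tested genes were on the higher and 0.0886% on the lower side, so that a count of 0 is near the background. By any distance, 3 of the 96 were higher and 21 lower on both KO arrays, where 3.41% and 25.2% of tested genes were. Beside Lrmda, the transcription regulator gene Zfp503 was at 8.28 and 7.84 on KO arrays 1 and 2, against 7.73 and 8.01 on the high-fat and low-fat WT arrays, and the polarity gene Dlg5 at 7.49 and 7.27, against 7.50 and 7.62. The distances of its 20 neighbours ran from −0.20 to 0. Beside Gm3893, Galt, the galactose-1-phosphate uridylyltransferase gene, was at 7.97 and 7.95 on the KO arrays, against 7.92 and 8.11, and 4930578G10Rik at 5.63 and 6.23, against 6.23 and 5.79. A chemokine gene 1 place further, Ccl19, had the lowest distance there, −0.40, with 6.53 and 6.70 on the KO arrays, against 7.11 and 7.09.

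Wdfy1 had 1 neighbour that was also higher on both KO arrays, the next gene Ap1s3, which encodes a subunit of a clathrin adaptor. Ap1s3 was at 7.87 and 7.07 on KO arrays 1 and 2, against 6.79 on the WT high-fat and 6.78 on the WT low-fat array, so that the nearest arrays were 0.28 apart. The WT arrays were alike and KO array 1 stood highest, whereas Wdfy1 was highest on KO array 2. The neighbour on the other side, the mitochondrial ribosome gene Mrpl44, was at 6.28 and 6.01 on the KO arrays, against 6.09 and 6.14. Beside Acer3, the calpain gene Capn5 was at 6.80 and 6.83 on the KO arrays, against 6.92 and 6.89 on the high-fat and low-fat WT arrays, and Lrrc32, which encodes a docking protein of latent TGF-beta, at 7.25 and 7.42, against 8.14 and 7.80. Around Nnt, Fgf10, a growth factor gene, was at 9.24 and 9.21 on the KO arrays, against 9.37 and 9.55, and Paip1, of translation initiation, at 8.28 and 8.30, against 8.12 and 8.48. Nim1k, a protein kinase gene, was at 5.43 and 5.32 on the KO arrays, against 5.67 and 5.57, lower on both as Nnt was. Emb, which encodes the membrane protein embigin, was at 9.70 and 8.09 on the KO arrays, against 7.93 and 7.86, and its KO mean lay 0.97 above the high-fat and 1.04 above the low-fat WT level. Its KO arrays were 1.60 apart, with KO array 1 highest. Ccl19, Nim1k and Emb were named after their values were seen.

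**Figure D3:**
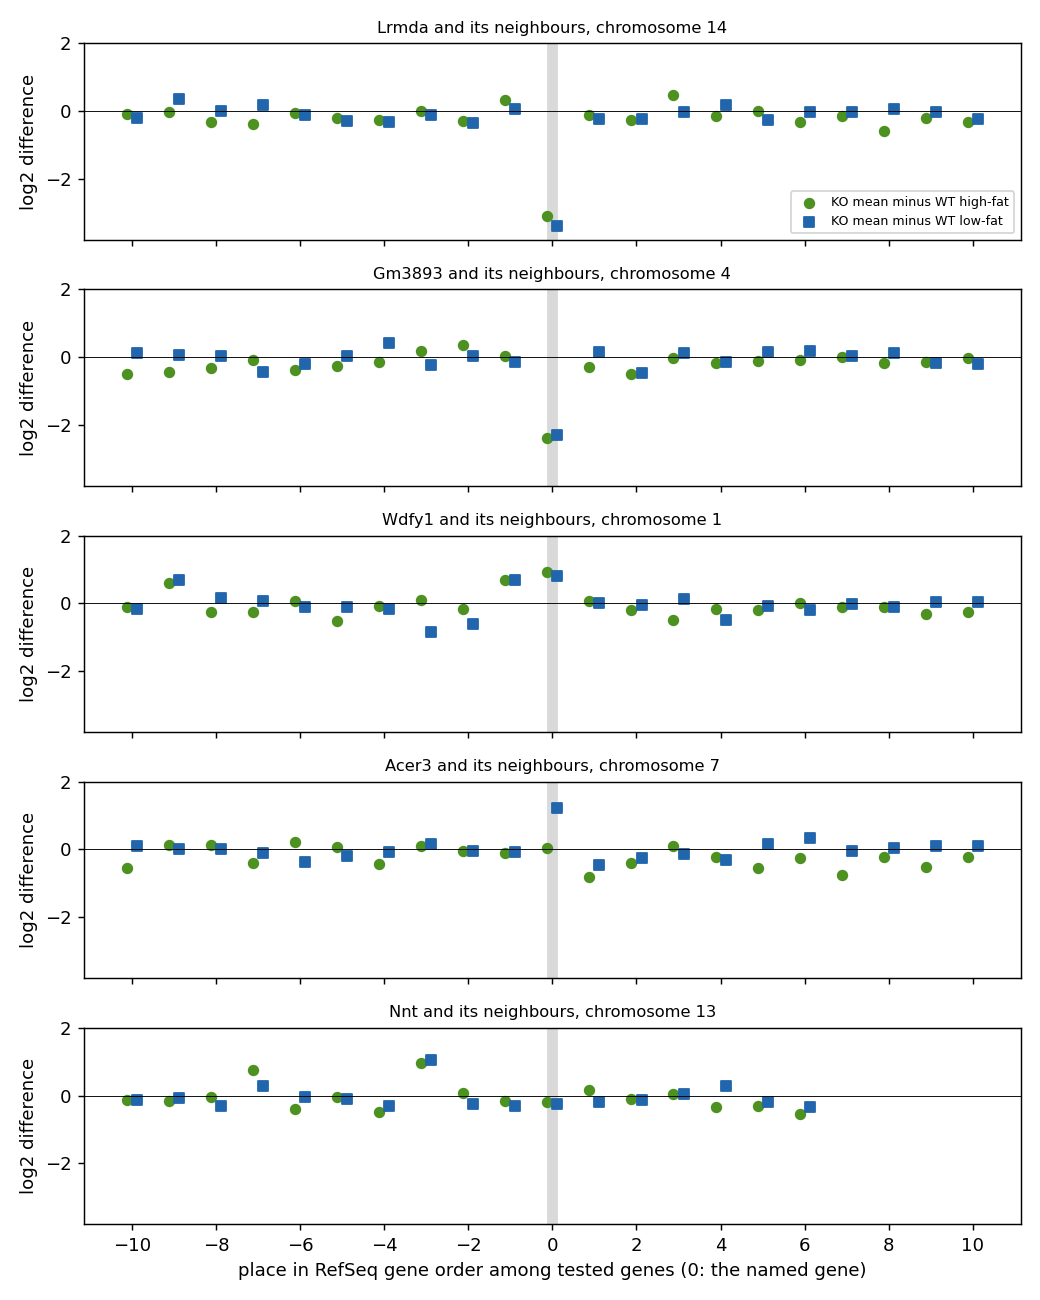
Log2 difference of the KO mean from the WT high-fat array (green circles) and from the WT low-fat array (blue squares) for each of the 5 genes (place 0, grey band) and up to 10 tested genes on each side, in RefSeq gene order. Lrmda, at −3.09 and −3.38, and Gm3893, at −2.38 and −2.30, stand by themselves, Ap1s3 next to Wdfy1 is also above 0, and Emb, at place −3 beside Nnt, is at 0.97 and 1.04.

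Other genes of the same pathways were read from lists drawn up with these results known. Over 6 lists with 81 tested genes, the members left out, 0 passed limma's test of the KO pair against the WT low-fat array (adjusted p under 0.05), and 0 had an unadjusted p under 0.05. Among all tested genes that test called 0 higher (0%) and 5 lower (0.0443%), namely Cd1d1 and the epididymal genes Spint4, Spint5, Lcn5 and Epp13. In the same limma test, 41 higher and 51 lower genes of the 11292 had an unadjusted p under 0.05. Spint4 was at 3.25 and 4.43 on KO arrays 1 and 2, against 3.19 on the WT high-fat and 11.35 on the WT low-fat array, so it was high on 1 WT array alone. With so few calls over all genes, none among 81 is near the background and shows nothing about the lists. By size, 0 of the 81 had both KO arrays at least 1.5-fold on 1 side of both WT arrays, with distances from −0.32 to 0.16. The median difference of the KO mean from the WT low-fat array was −0.09 over all tested genes, and from the WT high-fat array −0.16.

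Of 16 other pigment cell genes, 5 were tested, with a median difference of −0.16 from the WT high-fat and 0.13 from the WT low-fat array. Kit, a growth factor receptor of melanocytes and mast cells, was at 6.79 and 6.55 on KO arrays 1 and 2, against 6.48 and 6.49 on the high-fat and low-fat WT arrays, and Slc24a5, an ion exchanger of pigment granules and below the filter, at 4.71 and 4.77, against 4.56 and 4.47. Dct, also below the filter, was lower on both KO arrays, at 5.07 and 5.02, against 5.16 and 5.15. Oca2, below the filter too, was higher, at 4.44 and 4.44, against 4.28 and 4.43. The 8 defining markers of melanocytes, among them the tyrosinase gene Tyr and the melanosome genes Pmel and Mlana, were all below the filter, from 3.38 to 5.49 on all arrays. Their summed intensity was 195 and 183 on KO arrays 1 and 2, against 185 on the WT high-fat and 194 on the WT low-fat array. At levels below the filter these markers do not show whether pigment cells differed between the arrays, and their part in the Lrmda difference was not tested.

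Of 13 other tested genes of endosomal Toll-like receptor signalling, the median difference was −0.31 from the WT high-fat and −0.03 from the WT low-fat array. Traf6, a ubiquitin ligase downstream of the receptors, was the most distant, at 7.87 and 7.84 on KO arrays 1 and 2, against 8.20 and 8.20 on the high-fat and low-fat WT arrays. Tlr4, the endotoxin receptor, was at 8.01 and 8.43, against 8.51 and 8.46. Among 18 other tested FYVE and phosphoinositide genes of endosomes these medians were −0.17 and −0.04. None of the paralogs of Wdfy1 was higher on both KO arrays than on both WT arrays. Wdfy2 was at 7.64 and 7.87 on the KO arrays, against 7.93 and 7.89, Wdfy3 at 8.88 and 9.09, against 9.14 and 8.98, and Wdfy4 at 6.84 and 7.24, against 7.42 and 7.08.

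Of 25 other tested ceramide and sphingolipid genes the median difference was −0.28 from the WT high-fat and −0.0021 from the WT low-fat array. Acer2, the Golgi ceramidase, was at 9.44 and 8.95 on KO arrays 1 and 2, against 8.82 on the WT high-fat and 9.34 on the WT low-fat array, an order unlike that of Acer3. Acer1, the epidermal ceramidase, was below the filter, at 3.79 and 3.61 on the KO arrays, against 3.48 and 3.63. Smpd3, a neutral sphingomyelinase gene, was at 6.80 and 7.04, against 7.65 and 7.22, and Sgpp1, a sphingosine 1-phosphate phosphatase gene, at 8.98 and 9.04, against 8.70 and 8.82. Between the WT arrays, the high-fat one was higher by 1.5-fold or more in 5 of the 25, as in Acer3, where it was so in 7.72% of tested genes. It was also so in 6 of the 8 macrophage markers, whose part in the difference was not tested. The median difference between those arrays was 0.32 in the list and 0.05 over all tested genes.

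Of 15 other tested genes of mitochondrial NADPH and peroxide handling the median difference was −0.05 from the WT high-fat and −0.18 from the WT low-fat array, while those of Nnt were −0.20 and −0.24. Txnrd2, the mitochondrial thioredoxin reductase, was at 6.24 and 6.48 on KO arrays 1 and 2, against 6.90 and 6.71 on the high-fat and low-fat WT arrays. Nadk2, the mitochondrial NAD kinase, was at 7.57 and 7.56, against 7.62 and 8.04, and Idh2, an NADPH-making dehydrogenase, at 10.52 and 10.44, against 10.53 and 10.79. Glrx5, at 10.42 and 10.40, against 10.27 and 10.36, was higher on both KO arrays than on both WT arrays. By any distance, 1 of the 15 was higher and 3 lower, where 3.41% and 25.2% of tested genes were. Of the other genes listed as variable between substrains, 6 of 8 had a single-gene probe set and 5 were tested, with median differences of −0.76 from the WT high-fat and 0.15 from the WT low-fat array. Entpd4 was at 10.37 and 10.31 on the KO arrays, against 10.36 and 10.19 on the high-fat and low-fat WT arrays, the insulin-degrading enzyme gene Ide at 10.14 and 10.55, against 10.02 and 10.08, and the retinal polarity gene Crb1, below the filter, at 3.79 and 3.73, against 3.57 and 3.61. Cyfip2, of actin regulation, was at 5.76 and 6.69 on the KO arrays, against 7.02 and 6.38, and the platelet and endothelial gene Mmrn1 at 5.72 and 6.01, against 6.63 and 5.59. Dock2, of leukocyte migration and named after its values were seen, was at 7.44 and 8.94, against 9.07 and 8.07. Cyfip2 and Dock2 had the order of the macrophage marker sums, highest on the WT high-fat array and lowest on KO array 1. In 3 of the 5 tested the high-fat WT array was at least 1.5-fold above the low-fat one, where it was so in 7.72% of tested genes. The distances of these listed genes ran from 0 to 0.05 among the tested. Those of Lrmda, Gm3893 and Wdfy1 were larger, but the members were chosen partly on distance, so nothing is read from this.

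**Figure D4:**
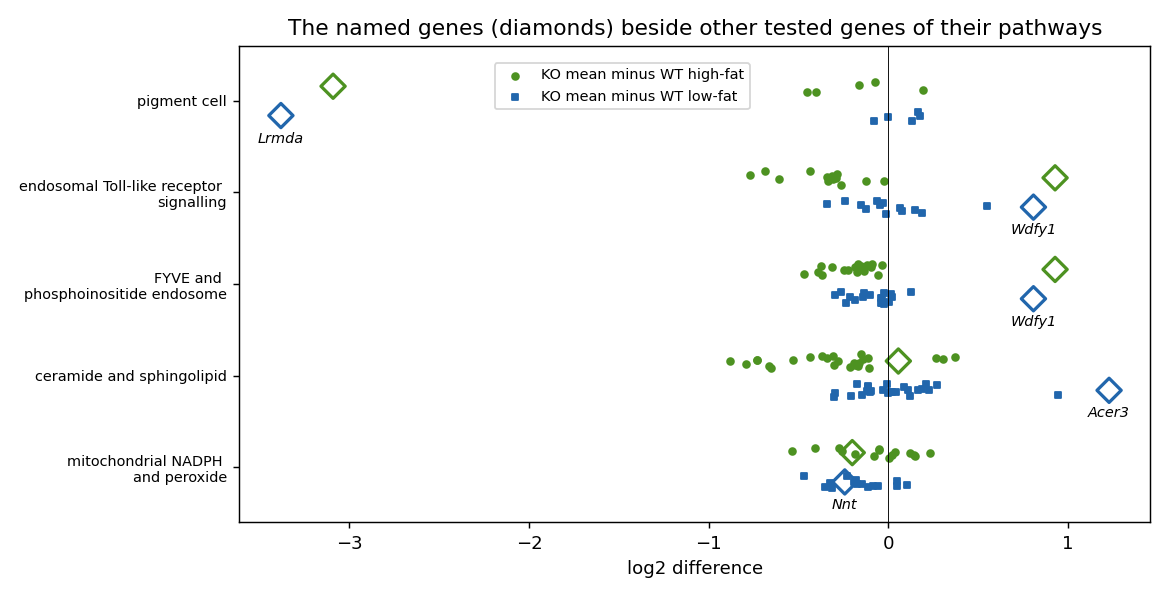
Log2 difference of the KO mean from the WT high-fat array (green) and from the WT low-fat array (blue) for the tested genes of 5 pathway lists (rows), with Lrmda, Wdfy1, Acer3 and Nnt as open diamonds in the row of their pathway and points spread vertically for visibility. Lrmda and Wdfy1 lie outside the other genes of their rows in both colours, Acer3 in blue only, and Nnt within its row. As the members were chosen partly on such differences, nothing is read from this.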

How the data were processed

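Each array's deposited values are linear-scale intensities, 1 for every probe set. The submitters' processing notes name RMA and R 2.15.0. The genome build is not given in the sources used here. Groups came from the sample titles. Intensities, from 5.71 to 20092, were turned into log2 with no further scaling. Of 35556 probe sets, 21218 carry 1 gene symbol, 1881 several and 12457 none in the platform annotation. Entrez IDs of 21185 matched the RefSeq table of GRCm38.p6, which changed 0 symbols. For the 1386 genes with several probe sets the brightest was kept, giving 18820 genes, of which 11292 with a mean log2 level of at least 5.45, the 40th percentile, were tested. The number of unmapped value columns was 0.

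KO was compared with WT on the low-fat diet with limma 3.58.1 (R 4.3.3), fitting the 3 group means, eBayes, two-sided tests and Benjamini-Hochberg adjustment over all 11292 genes. Only the KO pair gave a residual degree of freedom (1). The prior had 4.62, with an SD of 0.28. Hence the p-values rest on the spread between 2 arrays whose pools the labels do not describe. Other comparisons were counted by size, at 1.5-fold. The steps were tested on simulated data. The members, gene lists and named genes were chosen with earlier results of these data known. Named were all members, the 10 most distant genes each way, the 3 most alike per member, adjacent genes, paralogs and up to 4 genes of each list. Alternatives covered scaling, filter, probe set rule, thresholds, variance model and each KO array left out. Plots used Python 3.11.15 and matplotlib 3.10.9.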

Additional observations from a re-analysis of the deposited data

How the results depend on the processing

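Of 60 recomputed differences of the 5 genes from either WT array, 44 moved by less than the SD of the KO pair, 15 by more in the same direction, and 1 changed sign. The sign change was that of Acer3 against the WT high-fat array, which ran from −0.18 without KO array 1 to 0.29 without KO array 2. Leaving out 1 of 2 arrays cannot move their mean by more than their SD, and 6 differences concern genes with a single probe set under the mean of probe sets, so these show nothing about stability. In the other 34, 19 moved by less than the SD and 15 by more. Because that SD is 0.02 to 0.03 for Lrmda, Gm3893 and Nnt, small shifts pass it. Against the high-fat array, Lrmda was −3.11 with each array centred on its median and −3.02 after quantile normalization, Gm3893 was −2.30 after quantile normalization, and Nnt was −0.22 and −0.12 in these settings. Nnt against the low-fat array was −0.21 after quantile normalization. With the mean of all probe sets, Gm3893 was −2.26 against the low-fat array, and Nnt −0.16 against the low-fat and −0.042 against the high-fat array. With arrays centred on the tested genes, a setting added after the data were seen, the differences from the low-fat and high-fat arrays were −3.27 and −2.91 for Lrmda, −2.19 and −2.20 for Gm3893, and −0.13 and −0.020 for Nnt.

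The limma count of 5 was 1 with median centring, 3 with quantile normalization, 0 with no filter (unadjusted p under 0.05 in 163 higher and 119 lower genes), 2 with a 60th percentile filter, 3 with the mean of probe sets and 1 with both WT arrays as a group. Without a KO array no spread was left and limma was not run. The 153 genes at least 1.5-fold from the low-fat array on both KO arrays were 287 with no filter, 50 with the 60th percentile filter, 43 at 2-fold, and 785 to 1145 with a single KO array, and their split of 66 higher and 87 lower was 82 and 50 when centred on the tested genes. The 49 genes on 1 side of both WT arrays were 100, 18 and 17 in the first 3 of these settings and 106 to 547 with a single KO array. Lrmda and Gm3893 were among them in all 10 settings, the reported one included, and Wdfy1 in 8, dropping out with the 60th percentile filter and the 2-fold threshold. Taking away the filter or a KO array can only add genes, so staying in under those settings shows nothing about stability. The members were also chosen partly on this distance. The 1303 genes apart between the WT arrays were 779 with the 60th percentile filter and 431 at 2-fold, and the 2177 apart between the KO arrays, 1674 of them higher on KO array 2 and 503 lower, were 612 at 2-fold, and 1308 higher and 689 lower after quantile normalization. No paired analysis was possible because only the KO group has more than 1 array. Depth and detection calls were not given, so the background level of each probe set is unknown.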
